A study of Mus musculus with 6 samples.

Results

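Transcripts of 10 genes of the heterochromatin and DNA methylation machinery were followed in mouse regulatory T cells (Treg) with and without KAP1. The genes were a fixed list of symbols, Mphosph8, Pphln1, Morc2a, Suv39h1, Suv39h2, Ehmt1, Ehmt2, Dnmt1, Dnmt3a and Uhrf1, and all 10 were found among the 37991 genes of the count table. KAP1, encoded by Trim28, is the co-repressor through which KRAB zinc finger proteins bring silencing enzymes to DNA. The Treg were YFP+ CD4+ T cells sorted from spleen. Of the 6 libraries, 3 were labelled KAP1 deficient and 3 KAP1 sufficient, which the labels also call wild type. The labels give the strain as C57BL/6, except that deficient replicates 2 and 3 carry C57BL/7 and C57BL/8. The allele, the driver of any Cre recombinase, the driver of YFP, and the age and number of the mice are not stated in the labels. No treatment is labelled.

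These genes act in layers. MPP8 (Mphosph8) reads trimethylated lysine 9 of histone H3 (H3K9), and with periphilin (Pphln1) and TASOR it forms the HUSH complex, which silences retroelements with the help of SETDB1 and the ATPase MORC2A. SUV39H1 and SUV39H2 trimethylate H3K9 at repeats near centromeres, and the partners GLP (Ehmt1) and G9a (Ehmt2) place lower H3K9 methylation on euchromatic genes. UHRF1 recognises DNA methylated on one strand after replication and brings in DNMT1, which restores the mark, whereas DNMT3A methylates new sites. In Treg, loss of DNA methylation at an intronic enhancer of Foxp3 is known to keep that lineage gene on through division.

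Totals were 9954344 to 10994745 counts per library, so that 3 counts, the limit a count of 0 allows, equal 0.273 to 0.301 CPM, where CPM is a gene's count scaled by the library total. In 2 libraries the label and Trim28 were at odds. Trim28 had 232, 185 and 2544 counts in deficient replicates 1, 2 and 3, against 2462, 2483 and 218 counts in sufficient replicates 1, 2 and 3. Replicate 3 of each group was therefore doubted, and each result is given with all 6 libraries as labelled and with the 4 libraries left without them. Foxp3 stood at 596 to 614 CPM in the libraries labelled deficient and 621 to 747 CPM in those labelled sufficient. The CD8 T cell markers stood at 0 to 0.455 CPM for Cd8a and 10.2 to 14.6 CPM for Cd8b1. Of the myeloid markers Lyz2 stood at 0 to 0.397 CPM and Itgam at 1.19 to 2.68 CPM. Mitochondrial genes took 1.34%, 1.33% and 1.61% of counts in deficient and 1.92%, 2.097% and 1.41% in sufficient replicates 1, 2 and 3, lower in all 3 libraries low in Trim28, and the part of this share in the results was not tested. Deficient replicate 3 stood apart from every other library, with a chi-square per degree of freedom of 7.22 to 8.65 against each. Sufficient replicate 3 was near deficient replicates 1 and 2 (2.43 and 3.1) and far from sufficient replicates 1 and 2 (11.5 and 13.4). Replicates 1 and 2 stood at 2.49 from each other in the deficient group and at 2.81 in the sufficient group. The labels do not say that samples came from separate mice, so each p-value covers the spread among these 6 samples and no more, and that spread may be technical.

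With all 6 libraries as labelled, none of the 10 genes passed the edgeR test at an adjusted p of 0.05, where 0.0165% of 12158 tested genes were called, 0.00823% in each direction. At an unadjusted p under 0.05 there was 1 of them, Suv39h2, where 7.76% of all genes passed, and DESeq2 and limma-voom also called none at the adjusted threshold. In the 4 libraries, the counts were 3 of 10 lower in deficient cells (Dnmt1, Dnmt3a and Uhrf1), 1 higher (Morc2a) and 6 not past the test. Over all 12183 genes tested there, 17.4% were called, 7.39% lower and 9.96% higher. At an unadjusted p under 0.05 there were 5 of the 10, where 30.6% of all genes passed. The changes of the called genes were small, from 22.2% lower for Uhrf1 to 15.3% higher for Morc2a. DESeq2 called none of the 10 in the 4 libraries, with 4 at an unadjusted p under 0.05. Leaving out any single library cut the 4 calls to between 0 and 2, and only Uhrf1 and Dnmt1 were ever kept. The count was 0 without sufficient replicate 2, 1 without deficient replicate 1, and 2 without deficient replicate 2 or sufficient replicate 1.

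**Figure D1:**
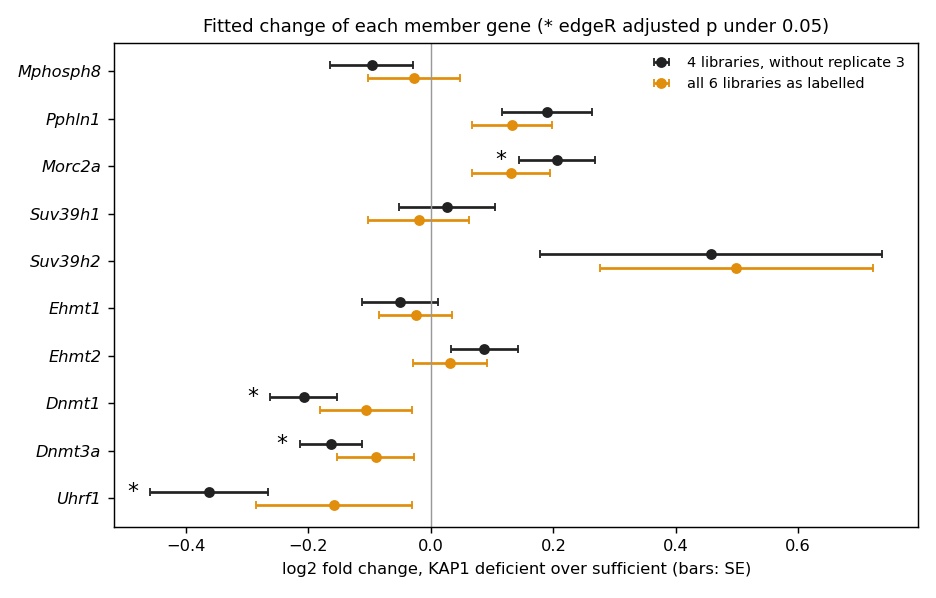
Log2 fold change of each gene, KAP1 deficient over KAP1 sufficient, with its standard error, in the 4 libraries without replicate 3 (black) and in all 6 as labelled (orange). Stars mark the 4 genes past the edgeR test, Morc2a to the right of 0 and Dnmt1, Dnmt3a and Uhrf1 to the left, all of them in the 4 libraries.

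Among the HUSH genes 1 of the 3 members, Morc2a, rose in the 4 libraries and the other two did not pass. Morc2a (ENSMUSG00000034543, chr11:3649191-3690477, mm10), the ATPase partner of HUSH, stood at 100.1, 100.4 and 92.2 CPM in the libraries labelled deficient replicates 1, 2 and 3, against 88.5, 86.0 and 92.3 CPM in sufficient replicates 1, 2 and 3. Deficient replicates 1 and 2 lay above the other 4 libraries, and both replicates 3 lay between. Its log2 fold change was 0.21 ± 0.06 (SE) in the 4 libraries (edgeR adjusted p = 0.034) and 0.13 ± 0.06 with all 6 (adjusted p = 0.654). The call was lost with upper-quartile factors (0.17, adjusted p = 0.0629), with DESeq2 (adjusted p = 0.284) and without any single library. The long noncoding RNA gene Tug1 shares 483 bases with the exons of Morc2a on the other strand, which is 7.52% of them. Tug1 stood at 309, 295 and 296 CPM in the libraries labelled deficient and 259.8, 259.2 and 323 CPM in those labelled sufficient, and rose in the 4 libraries (0.22 ± 0.05, edgeR adjusted p = 0.0074). No source states whether counting used strand, so reads on the shared bases cannot be assigned with certainty, and their part in the Morc2a value was not tested. The paralog Morc2b had a count of 0 in every library.

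Pphln1 (ENSMUSG00000036167, chr15:93398350-93491510, mm10), the periphilin subunit, stood at 60.5, 57.7 and 58.5 CPM in the libraries labelled deficient and 51.9, 52.2 and 56.9 CPM in those labelled sufficient. The labelled groups did not overlap, and sufficient replicate 3 was the closest to the deficient range. It did not pass in the 4 libraries (0.19 ± 0.07, edgeR adjusted p = 0.0897) or with all 6 (0.13 ± 0.07, adjusted p = 0.654). Mphosph8 (ENSMUSG00000079184, chr14:56668248-56697430, mm10), the reader subunit, stood at 70.1, 68.7 and 69.5 CPM in the libraries labelled deficient and 73.7, 75.3 and 62.9 CPM in those labelled sufficient. Its highest and its lowest value were thus both in libraries labelled sufficient. The log2 fold change was -0.10 ± 0.07 in the 4 libraries (edgeR adjusted p = 0.37) and -0.03 ± 0.08 with all 6.

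None of the 4 H3K9 methyltransferase genes passed in either comparison. Ehmt2 (ENSMUSG00000013787, chr17:34898469-34914052, mm10), which encodes G9a, stood at 267, 256.4 and 252 CPM in the libraries labelled deficient and 256.3, 238 and 264 CPM in those labelled sufficient. Ehmt1 (ENSMUSG00000036893, chr2:24789928-24919614, mm10), which encodes its partner GLP, stood at 91.6, 93.0 and 91.1 CPM in deficient and 93.8, 98.1 and 88.2 CPM in sufficient libraries. Both labelled groups overlapped for each gene, and the widest span was that of the sufficient libraries. Their log2 fold changes in the 4 libraries were 0.09 ± 0.06 and -0.05 ± 0.06 (SE), with edgeR adjusted p-values of 0.314 and 0.632. Suv39h1 (ENSMUSG00000039231, chrX:8061171-8074760, mm10) stood at 43.3, 44.9 and 38.4 CPM in deficient and 44.6, 42.2 and 41.2 CPM in sufficient libraries, a log2 fold change of 0.03 ± 0.08 in the 4 libraries (edgeR adjusted p = 0.858). An antisense gene shares 767 of its exon bases and had a count of 0 in every library.

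Suv39h2 (ENSMUSG00000026646, chr2:3455815-3475031, mm10), the second SUV39 enzyme, was the scarcest of the 10 genes, with 23 to 45 counts per library. It stood at 3.77, 3.11 and 4.09 CPM in the libraries labelled deficient and 2.77, 2.26 and 2.72 CPM in those labelled sufficient. All 3 deficient libraries lay above all 3 sufficient ones, whatever their Trim28 level, with the highest value in deficient replicate 3, where Trim28 was high. Its log2 fold change was 0.50 ± 0.22 (SE) with all 6 libraries (edgeR adjusted p = 0.644) and 0.46 ± 0.28 in the 4 libraries (adjusted p = 0.297), the widest errors of the 10. It shares 357 exon bases with Dclre1c on the other strand, so its few reads are uncertain.

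All 3 DNA methylation genes fell in the 4 libraries. Dnmt1 (ENSMUSG00000004099, chr9:20907209-20959888, mm10), the maintenance enzyme, stood at 227, 242 and 253 CPM in the libraries labelled deficient replicates 1, 2 and 3, against 263, 281 and 231 CPM in sufficient replicates 1, 2 and 3. The doubted libraries changed places, with deficient replicate 3 above the other deficient ones and sufficient replicate 3 below the other sufficient ones. In the 4 libraries Dnmt1 fell, with a log2 fold change of -0.21 ± 0.05 (SE) and an adjusted p of 0.0156 by edgeR, or 13.4% lower. With all 6 its log2 fold change was -0.11 ± 0.08 (adjusted p = 0.708). Its adjusted p was 0.0683 with DESeq2, 0.156 without deficient replicate 1 and 0.0873 without sufficient replicate 2.

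Uhrf1 (ENSMUSG00000001228, chr17:56303321-56323486, mm10), which brings DNMT1 to replicated DNA, stood at 32.4, 33.9 and 41.7 CPM in the libraries labelled deficient and 38.5, 47.1 and 34.8 CPM in those labelled sufficient. In the 4 libraries it fell, with a log2 fold change of -0.36 ± 0.10 (SE) and an adjusted p of 0.0168 by edgeR, the largest change among the 4 called genes. The size rested on 1 library, at -0.22 without sufficient replicate 2 (adjusted p = 0.184) and -0.50 without sufficient replicate 1. DESeq2 gave an adjusted p of 0.166. With all 6 libraries it was -0.16 ± 0.13 (adjusted p = 0.741). Dnmt3a (ENSMUSG00000020661, chr12:3806007-3914443, mm10), the enzyme for new sites, stood at 215, 209 and 225 CPM in the libraries labelled deficient and 239.9, 236 and 213 CPM in those labelled sufficient. Dnmt3a fell in the 4 libraries, with a log2 fold change of -0.16 ± 0.05 and an adjusted p of 0.0389 by edgeR. It lost the call with DESeq2 (adjusted p = 0.213) and without any single library, at adjusted p-values of 0.0557 to 0.252. With all 6 libraries its log2 fold change was -0.09 ± 0.06.

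**Figure D2:**
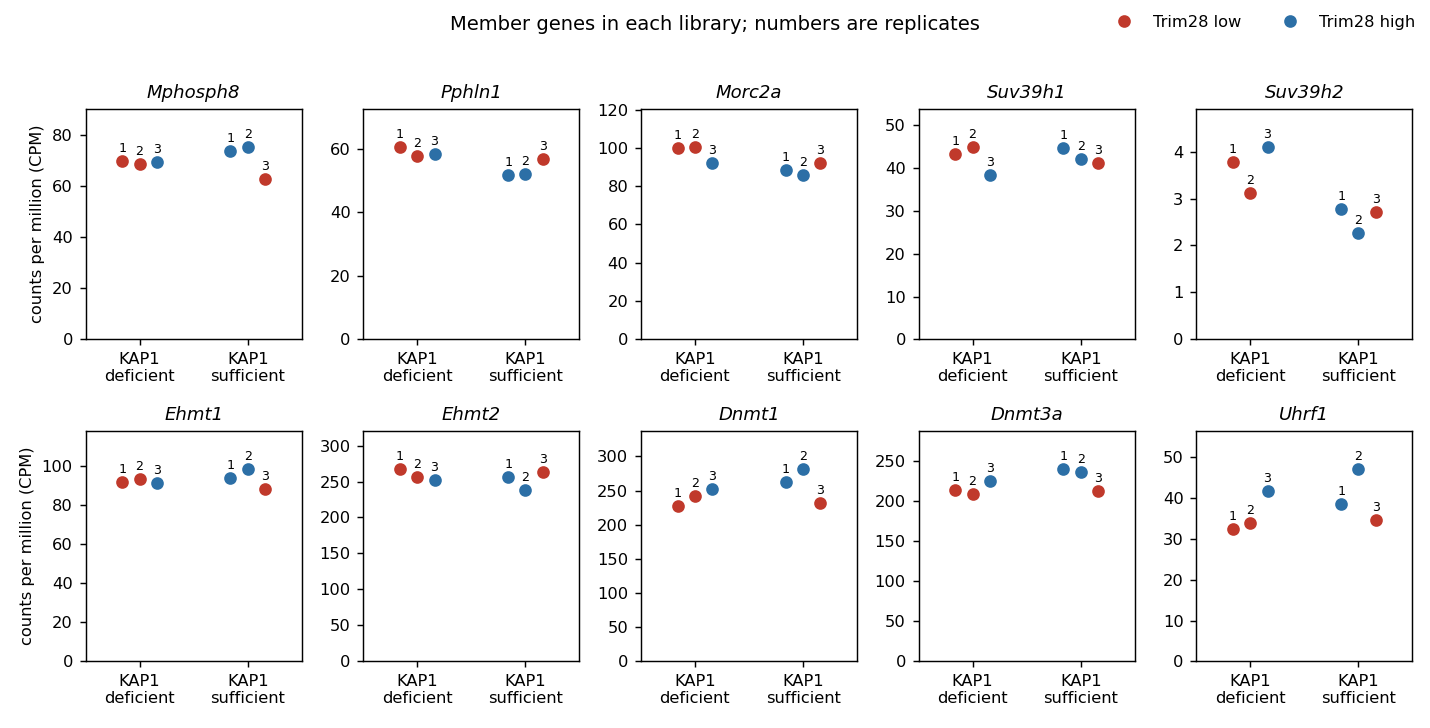
CPM of the 10 genes in each library, KAP1 deficient left and KAP1 sufficient right, each axis starting at 0; red points are the 3 libraries low in Trim28 and blue points the 3 high in it, and numbers are replicates. Dnmt1, Dnmt3a and Uhrf1 have every red point below every blue one, and Suv39h2 and Pphln1 have every deficient point above every sufficient one.

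By Trim28 level, 5 of the 10 genes did not overlap, where 26.4% of the 12158 tested genes did not, 11.9% higher and 14.5% lower in the low libraries. This is a description with no test, because Trim28 level is measured and not a label. The libraries labelled deficient replicates 1 and 2 and sufficient replicate 3 were low, at 18.6 to 23.0 CPM of Trim28, and deficient replicate 3 and sufficient replicates 1 and 2 were high, at 231 to 244 CPM. Dnmt1 ran from 227 to 242 CPM in the low libraries and from 253 to 281 CPM in the high ones. The 4 libraries are among these 6, so a direction shared with them is no further evidence. Dnmt3a ran from 209 to 215 CPM in the low and from 225 to 239.9 CPM in the high libraries. Uhrf1 ran from 32.4 to 34.8 CPM in the low and from 38.5 to 47.1 CPM in the high libraries. Morc2a was separated by a narrow gap, with 92.3 to 100.4 CPM in the low and 86.0 to 92.2 CPM in the high libraries. Ehmt2 did not overlap on library totals, at 256.4 to 267 CPM in the low and 238 to 256.3 CPM in the high libraries, but did on TMM-adjusted totals and on DESeq2 size factors, which left 4 genes. By label, 2 of the 10 did not overlap, Pphln1 and Suv39h2, both higher in deficient libraries, against 12.8% of all tested genes, 6.73% higher and 6.05% lower.

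On a scale that allows genes to be compared, CPM per kilobase of exon, the mean level over all 6 libraries was highest for Ehmt2 (46.6 ± 1.83, SD) and next for Dnmt1 (33.8 ± 2.76) and Mphosph8 (19.5 ± 1.21). These 3 did not overlap with their neighbours in the order. Morc2a (14.5 ± 0.918), Dnmt3a (13.4 ± 0.779), Pphln1 (12.4 ± 0.772), Ehmt1 (11.4 ± 0.41), Uhrf1 (8.93 ± 1.30) and Suv39h1 (8.05 ± 0.463) followed, each overlapping with the next in its range over libraries. Suv39h2 was last and stood apart (0.708 ± 0.157). The highest mean was 65.8 times the lowest, so the level of a member varied far more between genes than any of them did between libraries. Exon lengths are those of all annotated exons together, which understates genes with long rare exons.

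The sequences shown are those that hold E2F letters, the motif of factors that drive S phase genes, since Dnmt1 and Uhrf1 were 2 of the 3 members with a match. Capitals mark a match to TTTGGCGC, TTTCCCGC, TTTGCCGC or TTTCGCGC or their reverse complements, searched in the 250 bases before each RefSeq start on GRCm38.p6, and where a gene has several starts the window with the most CpG was used. Sequences run 5′ to 3′ on the strand of the gene. For Uhrf1 the whole window is given (chr17:56304063-56304312, plus strand), which holds no annotated exon base. For Dnmt1 (chr9:20952824-20952853, minus strand) and Suv39h1 (chrX:8074407-8074436, minus strand) 30 bases around the match are given, which in Dnmt1 lie in an annotated exon and in Suv39h1 in none.
Uhrf1: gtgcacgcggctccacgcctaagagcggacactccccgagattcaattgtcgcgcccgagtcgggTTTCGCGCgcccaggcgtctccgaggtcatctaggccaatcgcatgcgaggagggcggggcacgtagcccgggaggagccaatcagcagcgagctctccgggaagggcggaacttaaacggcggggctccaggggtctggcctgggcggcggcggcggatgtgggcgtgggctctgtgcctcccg
Dnmt1: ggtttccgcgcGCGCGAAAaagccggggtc
Suv39h1: ggaaggccggcGCGGCAAAcgtgggggccg
All 10 genes had a RefSeq window. The most CpG-rich window of each held 19 to 46 CpG, with a median of 28.5, against a median of 6 over 32851 windows. Mphosph8 had the fewest and Pphln1 the most, and Dnmt3a held 40, Morc2a 39, Uhrf1 30, Dnmt1 26 and Suv39h1 25. The E2F letters were found in 3 of the 10, GCGCGAAA in Dnmt1, TTTCGCGC in Uhrf1 and GCGGCAAA in Suv39h1. The share was 1.94% over the windows of 27025 genes and 15.4% (4 of 26) over the S phase and mitosis genes with a window. Each motif itself holds a CpG, and the windows were not matched for CpG, so these shares are not like for like. Annotated exons cover 0 to 246 bases of the 10 windows, the most in Morc2a, with 166 in Dnmt1. Suv39h1 has the letters at a log2 fold change of 0.03 ± 0.08 in the 4 libraries, and Dnmt3a, which fell, has none in its window. The motif was chosen after the sequences were seen, and a match is not a bound site. The part of E2F factors in these values was not tested.

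Genes of cell division were lower in the same libraries as Dnmt1 and Uhrf1. Of 32 S phase and mitosis genes 15 had fallen, none had risen and 17 had not passed in the 4 libraries. Among all 12183 genes tested there, 7.39% were called lower and 9.96% higher, shares that also stand beside the marker lists below. The median log2 fold change of the 32 was -0.46 against -0.0021 over all genes. The 15 became 8 with DESeq2 and 23 without sufficient replicate 1. With all 6 libraries none passed by edgeR, DESeq2 or limma-voom, with 1 at an unadjusted p under 0.05 by edgeR. The summed level of the list was 1224, 1274 and 1483 CPM in the libraries labelled deficient and 1502, 1731 and 1233 CPM in those labelled sufficient. The 3 libraries low in Trim28 were again the 3 lowest. The proliferation marker Mki67 stood at 109, 115 and 158 CPM in deficient and 174, 210.01 and 107 CPM in sufficient libraries, and fell in the 4 libraries, with a log2 fold change of -0.77 ± 0.08 and an adjusted p of 9.01e-06 by edgeR. Dnmt1 and Uhrf1 are themselves made mostly by dividing cells, as background knowledge has it, and the part of division in their values was not tested. In bulk RNA, fewer cells of one kind and less RNA per cell cannot be told apart. The same libraries also differed in transcripts of other cells. Of 8 B cell markers in the table, 4 passed the filter and 3 of them fell in the 4 libraries (Cd22, Ighm and Igkc), with a summed level of 544 to 606 CPM in deficient and 581 to 697 CPM in sufficient libraries, of which Ighm was most. Cd22 stood at 3.92 to 7.09 CPM in deficient and 6.02 to 12.6 CPM in sufficient libraries. Cd79b, which did not pass, stood at 8.83 to 11.4 CPM in deficient and 7.77 to 11.9 CPM in sufficient libraries. Pax5 and Ms4a1, which define B cells, stood at 0 to 0.0971 CPM, and the part of these transcripts was not tested. The natural killer list, with 3 of 5 genes at 0 in every library, summed to 11.9, 11.5 and 4.73 CPM in deficient and 7.03, 4.62 and 9.9994 CPM in sufficient libraries, and 1 of its 2 tested genes rose in the 4 libraries. Of 8 Treg markers 1 was called higher there (Ikzf2), 3 lower (Foxp3, Trac and Cd4) and 4 neither. Foxp3 had a log2 fold change of -0.25 ± 0.05 in the 4 libraries (edgeR adjusted p = 0.0051) and -0.18 ± 0.07 with all 6 (adjusted p = 0.632). Cd4 lost its call with DESeq2. The CD8 T cell, myeloid and stromal lists had 1 tested gene each, none called, and the erythroid list had no tested gene.

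**Figure D3:**
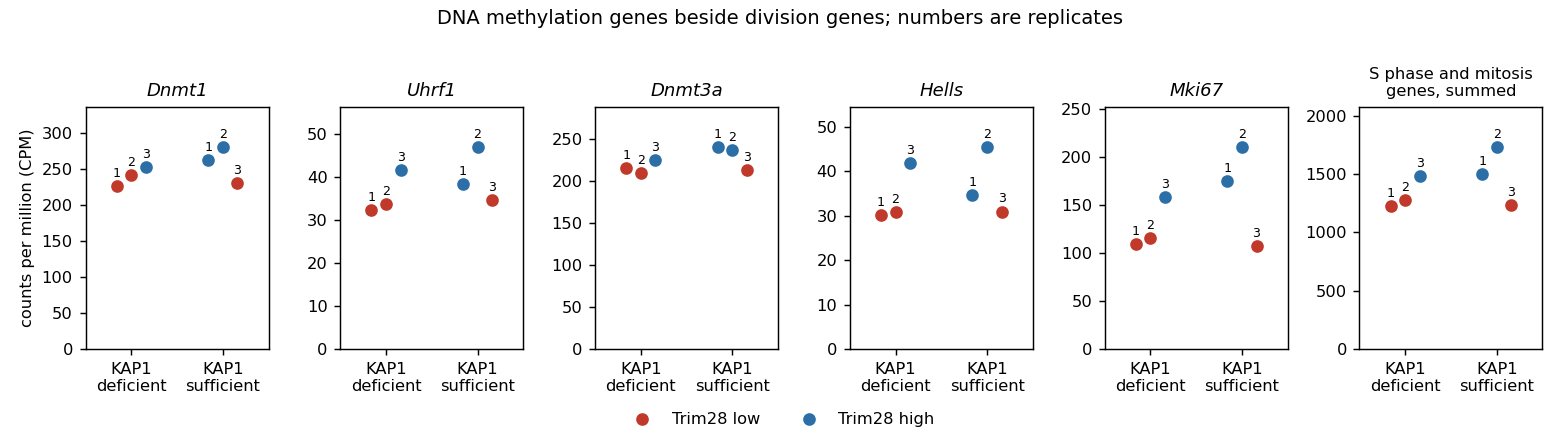
CPM of Dnmt1, Uhrf1, Dnmt3a, the remodelling helicase gene Hells and the proliferation marker Mki67 in each library, and the summed CPM of the S phase and mitosis genes; KAP1 deficient left, KAP1 sufficient right, red low and blue high in Trim28. In every panel the 3 red libraries are the lowest, and sufficient replicate 2 is the highest in all but Dnmt3a.

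Around the members, the DNA methylation list held 10 other tested genes, with 3 lower, 1 higher and 6 not past the test in the 4 libraries. There, 7.39% of all tested genes were called lower and 9.96% higher. Together with the 3 members 6 genes of the list were lower, and 1 was with DESeq2, 3 without deficient replicate 1 and 1 without sufficient replicate 2. Hells, a helicase that opens nucleosomes for DNA methylation, stood at 30.2, 30.8 and 41.8 CPM in deficient and 34.7, 45.5 and 31.0 CPM in sufficient libraries. It fell, with a log2 fold change of -0.39 ± 0.11 and an adjusted p of 0.024 by edgeR, and the value was -0.19 without sufficient replicate 2 and no longer called. DESeq2 did not call Hells (adjusted p = 0.165) or Pclaf (adjusted p = 0.117) in the 4 libraries. Pclaf, a partner of the replication clamp PCNA, fell by 0.58 ± 0.17 by edgeR. It was no longer called when sufficient replicate 2 (-0.29) or deficient replicate 1 was left out. Mat2a, which makes the methyl donor S-adenosylmethionine, fell by 0.24 ± 0.06, while its regulatory subunit gene Mat2b rose (0.26 ± 0.05). The Mat2a call was lost without sufficient replicate 1. Dnmt3b did not pass (0.13 ± 0.14) at 13.2 to 16.3 CPM, nor did Uhrf2 (0.03 ± 0.06), and Dnmt3l had a count of 0 in every library. Of 10 DNA demethylation genes none passed in the 4 libraries by edgeR, with 2 at an unadjusted p under 0.05, and DESeq2 and limma-voom called none, while 1 was lower without deficient replicate 1. The lowest adjusted p-values were those of Gadd45g (-0.46 ± 0.17, adjusted p = 0.0846) and the repair glycosylase gene Neil1 (0.25 ± 0.11, adjusted p = 0.124).

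Larger changes were seen in partners of the members. In the 4 libraries 9.96% of all tested genes were called higher. The direction of Trim28 there was fixed by how those libraries were kept. Of the other tested HUSH and partner genes 4 were called higher there and 3 were not called. With Morc2a 5 were higher, and 3 were without deficient replicate 1. Setdb1, the H3K9 methyltransferase that HUSH and KAP1 both use, stood at 286, 287 and 121 CPM in deficient and 118, 117 and 291 CPM in sufficient libraries, so its high level went with low Trim28. Morc3, a paralog of Morc2a, stood at 335, 313 and 153 CPM in deficient and 144, 147 and 308 CPM in sufficient libraries. In the 4 libraries Setdb1 rose, with a log2 fold change of 1.29 ± 0.05, and so did Morc3 (1.16 ± 0.05). Fam208a, the gene of the HUSH scaffold TASOR, stood at 197, 194 and 207 CPM in deficient and 161.2, 160.6 and 196 CPM in sufficient libraries. Sufficient replicates 1 and 2 were the lowest, and deficient replicate 3 was the highest although its Trim28 was high. Fam208a rose in the 4 libraries (0.29 ± 0.05, edgeR adjusted p = 0.0014), and its relative Fam208b rose by 0.24 ± 0.06 (adjusted p = 0.0131, named after its values were seen). Atf7ip, a partner of SETDB1, did not pass (-0.14 ± 0.05).

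Among methyl-CpG readers the largest change was that of Mbd1. This gene, whose protein binds methylated CpG and is known to recruit SETDB1, stood at 329, 315 and 104 CPM in deficient and 114, 100.4 and 329 CPM in sufficient libraries. The 3 libraries low in Trim28 were the 3 highest, with no overlap. Its log2 fold change was 1.59 ± 0.06 (SE) in the 4 libraries (edgeR adjusted p = 2.72e-10) and 0.46 ± 0.74 with all 6 as labelled (adjusted p = 0.889). Of the 10 readers 4 were called higher, 1 lower and 5 neither in the 4 libraries. The shares over all genes tested there were 9.96% higher and 7.39% lower. Zbtb38 (0.43 ± 0.06) and Zbtb33 (0.33 ± 0.08, named after its values were seen) rose with Mbd1, and Mbd6 fell (-0.26 ± 0.06). Without deficient replicate 1 there were 2 higher.

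The H3K9 readers and partners moved both ways, with 3 of 15 other tested genes higher, 2 lower and 10 not past the test in the 4 libraries. Among all genes tested there, 9.96% were higher and 7.39% lower. The HP1 gene Cbx3 rose by 0.63 ± 0.13 on the log2 scale, while the other HP1 genes Cbx1 (0.07 ± 0.07) and Cbx5 (-0.05 ± 0.06) did not pass. The lamin B receptor gene Lbr rose (0.36 ± 0.05), and Sirt1 rose by 0.25 ± 0.08 (named after its values were seen). Chaf1a, the large subunit of a histone chaperone that acts at replication, fell by 0.71 ± 0.14, and Wiz, which holds G9a and GLP together, fell by 0.24 ± 0.07. Wiz lost its call with DESeq2 and without deficient replicate 1 or sufficient replicate 2, and Cbx3 with DESeq2, which called 1 gene of the list in each direction. Of 11 H3K9 demethylase genes 1 rose, Kdm7a (0.40 ± 0.05, edgeR adjusted p = 7.51e-05), near the 9.96% of all genes, and 10 did not pass. With library totals alone, upper-quartile factors or no filter 2 were also called lower.

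**Figure D4:**
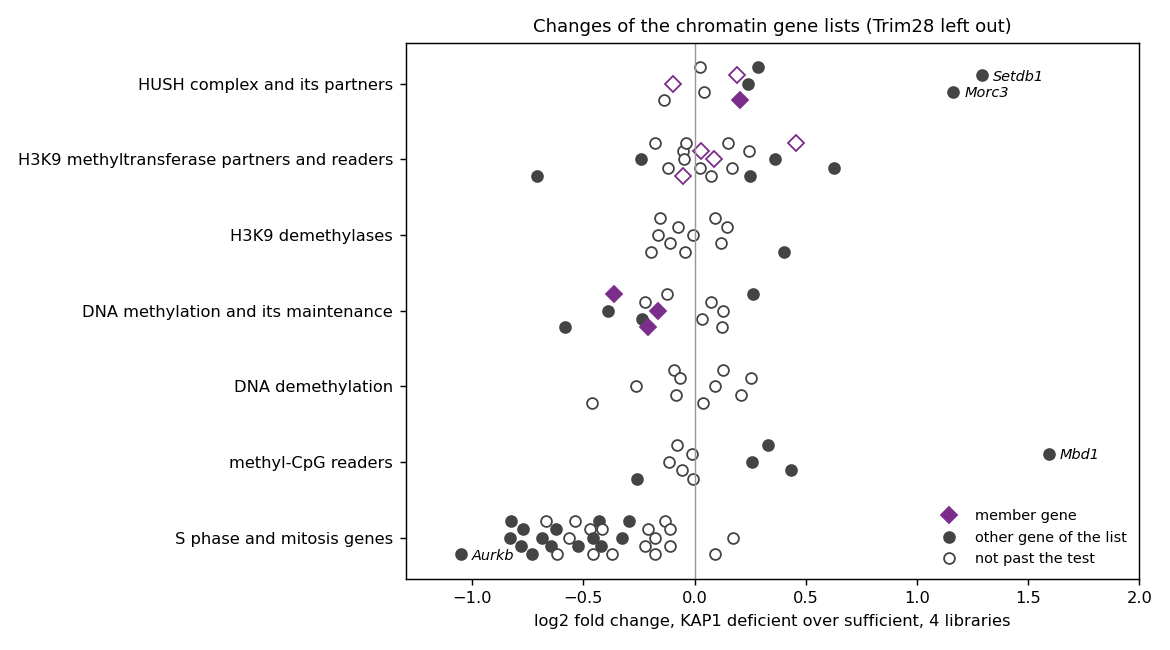
Log2 fold change in the 4 libraries, KAP1 deficient over KAP1 sufficient, of each tested gene in 7 lists, with Trim28 left out; purple diamonds are the 10 genes of this report, filled symbols passed the edgeR test at 0.05 and open ones did not. Mbd1 (1.59), Setdb1 (1.29) and Morc3 (1.16) stand apart from the members, which lie between -0.36 and 0.46.

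A list of 22 germline genes that DNA methylation keeps off in somatic cells was near the floor in both groups. A count of 0 in every library was found for 13 of them, and only Brdt and Piwil2 passed the filter on low counts. The summed level of all 22 was 3.47, 3.21 and 5.55 CPM in deficient and 3.27, 3.63 and 3.98 CPM in sufficient libraries. In the 4 libraries Brdt changed by -0.68 ± 0.34 in log2 (adjusted p = 0.195 by edgeR) and Piwil2 by 0.45 ± 0.44 (adjusted p = 0.538). Neither passed by edgeR, DESeq2 or limma-voom, with 0 at an unadjusted p under 0.05 by edgeR. Below 0.273 to 0.301 CPM a change would not be detectable at this depth.

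The authors' deposited table, in which positive log2 fold changes mean higher in sufficient cells, calls 829 of 12072 genes at an adjusted p under 0.05 (6.87%), with 3.02% lower in deficient cells, and 2 of the 10 genes. Uhrf1 has, in the authors' deposited table, a log2 fold change of 0.27 (adjusted p = 0.0374) and Dnmt1 of 0.18 (adjusted p = 0.048), each lower with KAP1 deficiency. The adjusted p in the authors' deposited table was 0.232 for Dnmt3a and 0.645 for Morc2a, and Mbd1 has a log2 fold change of -1.51. The authors' mean level in the authors' deposited table was 58.7 for Suv39h2, against counts of 23 to 45, and 575 for Uhrf1, against counts of 327 to 479, so it lies above every library's count. In the authors' deposited table Trim28 has a log2 fold change of 3.11, Setdb1 of -1.19 and Morc3 of -1.04, sufficient over deficient. Taken as deficient over sufficient, the edgeR values were -3.54, 1.29 and 1.16 in the 4 libraries. With all 6 as labelled they were -0.90, 0.40 and 0.42. Which libraries entered the authors' comparison is not stated in the labels or the file, and was not tested.

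Across the 6 libraries, the genes whose log2 CPM ran most like each called gene were sought among 8944 genes of at least 10 CPM. For Dnmt1 they were Nusap1, the replication helicase gene Mcm3 and Mrpl39, with Pearson r of 0.998 to 0.995. For Uhrf1 they were Alms1, M6pr-ps and Ptcd1 (0.999 to 0.991). Those for Dnmt3a were Safb2, Tcf3 and Akap8l (0.996 to 0.995), and for Morc2a Endod1, Gprasp1 and Kdm1b (0.996 to 0.988). These values are a description, with no test. Each gene was picked as highest among 8944 over 6 libraries, so a high r follows from the choice. Among the members, Dnmt1 and Uhrf1 ran together (r = 0.917), as did Dnmt1 and Dnmt3a (r = 0.854), and Ehmt2 ran opposite to Dnmt1 (r = -0.927). Such values were not particular to the DNA methylation genes. Mphosph8 ran with Ehmt1 (r = 0.908), and Morc2a ran opposite to Dnmt3a (r = -0.861). These points share library, depth and Trim28 level.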

How the data were processed

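RNA was sequenced from 6 libraries of sorted splenic Treg, prepared with a TruSeq kit per the labels. The authors deposited whole-number counts for each Ensembl gene, not normalized. TopHat2 2.1.1, HTSeq 0.7.2, DESeq2 and mm10 are named in the submitters' processing notes, with no role or order. Their table of results holds, per the file headers, a mean normalized signal, log2 fold changes with standard errors, a test score, p-values, adjusted p-values and q-values.

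Groups and replicate numbers came from the titles. Of 37991 identifiers 32919 had a symbol, and the others held 0.603% of counts. The test was edgeR 4.0.16 under R 4.3.3 (robust quasi-likelihood test, TMM factors, filterByExpr, Benjamini-Hochberg adjustment over all genes tested), deficient over sufficient. Standard errors come from dividing the log2 fold change by the root of F. DESeq2 1.42.0, limma-voom (limma 3.58.1), other scaling factors and filters, a non-robust fit, a replicate block and leaving out each library were alternatives. CPM used library totals. Floors cover counting error only, while the standard errors also hold the spread among libraries. No pair of libraries agreed within sampling noise, with chi-square over its degrees of freedom at least 2.43. GENCODE M21 gave positions and exon lengths on mm10, and RefSeq (GRCm38.p6) gave the promoters. The fits were tested on simulated data in which no library went against its label, unlike replicate 3 of each group here. The members, the 15 other gene lists and the 4-library comparison were chosen with earlier results of these data known. Named genes were the 10 members, Trim28, Mki67, up to 4 other called genes per list (or the 2 of smallest adjusted p where none was called), and for each called member the 3 genes most like it. Some genes this covers are left out of the text. Plots used Python 3.11.15 and matplotlib 3.10.9.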

Additional observations from a re-analysis of the deposited data

How the results depend on the processing

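With all 6 libraries, 0 of the 10 members were called in the edgeR fit and under each of the 15 alternatives run, while the 2 genes called among all tested became 6 with DESeq2, 1 with limma-voom or the non-robust fit, 0 with the replicate block, and 1 to 807 without single libraries, the highest without sufficient replicate 3. In the 4 libraries, the 4 called members became 0 with DESeq2 and 0 to 2 without single libraries, where the lone library is assumed to vary like the other group. The 2114 genes called among all tested became 930 with DESeq2, which tested 17899 genes in place of 12183. The replicate block gave 2359 genes and the same number of members, 4. Deviations of libraries with one number correlated at -0.365, -0.292 and -0.613 with all 6 and at -0.0191 in the 4. With 2 libraries per group, the deviations within a group are mirror images. Across all 6, replicate 3 of each group has Trim28 against its label. These values therefore cannot decide whether libraries with one number were paired. By Trim28 level, 5 members without overlap became 4 on the other scalings. Of 130 member values in the 4 libraries 112 stayed on their side, 16 lost the call and 2 changed sign, both Suv39h1 (-0.0043 with upper-quartile factors, and -0.02 to 0.0716 without single libraries). With all 6, 6 of 150 changed sign without single libraries, none called, where the ranges were -0.1031 to 0.0176 for Mphosph8, -0.064 to 0.0512 for Suv39h1, -0.0635 to 0.0085 for Ehmt1 and -0.0132 to 0.064 for Ehmt2. Piwil2 ran from -0.1207 to 0.8583 in the 4. The cause was not tested. Depth limits genes below 0.273 to 0.301 CPM.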
